A study of Mus musculus with 8 samples.

Results

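The genes described here encode the machinery that makes miRNAs, silences their targets and degrades the silenced mRNAs. A fixed list of 43 genes was read from a table of 55416 genes, all 43 matched exactly 1 row of it by symbol, and all 43 were among the 18627 genes that received an adjusted p. Cortical mRNA had been sequenced in 4 libraries from mice carrying the L192P substitution on one Ago2 allele (genotype AGO2_L192P/+, here L192P) and in 4 libraries from wild-type mice (WT). The allele was made with CRISPR/Cas9 in embryos of C57BL/6JUke mice, is not restricted to a cell type, and was studied beside the remaining wild-type Ago2 allele. Age and sex are not given in the labels. The libraries are labelled as replicates without naming the animals, so p-values judge a difference against the spread between these libraries. The question was whether the abundance of this machinery differs between the cortex of both genotypes.

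A primary miRNA transcript is cut in the nucleus by the Microprocessor (Drosha with Dgcr8), exported by exportin 5 with Ran, cut again by Dicer with its partners, and loaded into an Argonaute protein. The Argonaute carries the miRNA to matching sites in 3′ untranslated regions (3′ UTRs) and binds a GW182 protein of the Tnrc6 family. GW182 proteins recruit the deadenylases PAN2-PAN3 and CCR4-NOT, after which the mRNA is decapped by Dcp2 and degraded from its 5′ end by Xrn1. miRNAs themselves are turned over by uridylation (Tut4 and Tut7) and by a pathway in which Zswim8 marks Argonaute for destruction.

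The substitution that defines the groups replaces a leucine of Ago2 by a proline. Gene counts do not hold the bases of the reads, so the alleles were not checked in the libraries.

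The same leucine is present in the paralogs Ago1, Ago3 and Ago4, which belong to the machinery described here. The next lines give the reference coding sequence around it in these 3 genes, with the leucine codon in capitals (GRCm39, minus strand in all 3).
Ago1, chr4:126354209-126354271: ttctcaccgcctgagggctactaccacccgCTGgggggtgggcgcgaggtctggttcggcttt
Ago3, chr4:126297007-126297069: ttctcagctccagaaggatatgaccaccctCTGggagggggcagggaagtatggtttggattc
Ago4, chr4:126410912-126410974: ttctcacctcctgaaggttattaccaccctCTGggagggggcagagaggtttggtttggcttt
Over these 63 bases Ago1 differs from the matching stretch of Ago2 at 20 positions, Ago3 at 14 and Ago4 at 13. The leucine is residue 190 of Ago1, 193 of Ago3 and 182 of Ago4. Over the aligned residues of the whole proteins, translated from the annotated transcripts, Ago1 is identical to Ago2 at 82.8%, Ago3 at 81.2% and Ago4 at 79.0%.

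None of the 43 genes passed the test in the fit without the replicate block. In the DESeq2 comparison of L192P with WT, 0 of 43 had an adjusted p under 0.05, where 253 of all 18627 tested genes did (1.36%), and the lowest adjusted p among the 43 was 0.252. At an unadjusted p under 0.05 there were 5 genes (11.6%), against 9.44% of all tested genes. edgeR's quasi-likelihood test gave 0 calls and 5 genes at an unadjusted p under 0.05, and limma-voom gave 0 calls and 4 genes. By sign alone 24 genes were above 0 and 19 below, and the median log2 fold change was 0.016, against 0.002 over all tested genes. With the replicate number as a block, 1 gene, Dcp2, passed (4.25% of the 12536 genes tested in that fit passed). edgeR with this block also called Dcp2 alone and had 7 genes at an unadjusted p under 0.05. The share of all genes at that p was not computed for the block.

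Taken 1 gene at a time, the 95% intervals bound the size of a change in bulk cortex for most of the machinery. They do not bound a change within 1 cell type. The standard errors of the log2 fold changes ran from 0.054 to 0.146 with a median of 0.081. The 95% interval of the log2 fold change lay between -0.32 and 0.32 for 36 of the 43 genes (83.7%), against 43.4% of all tested genes, and between -0.58 and 0.58, which is 1.5-fold, for all 43, against 64.6%. All 43 have a mean of at least 100 normalized counts. Among the 12053 tested genes with that mean the shares were 67.1% and 94.5%. Beyond this minimum the genes were not matched by count level. The 7 genes whose interval went beyond 0.32 were Prkra, Ago4, Mov10, Pan2, Dcp2, Xrn1 and Tut4.

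**Figure D1:**
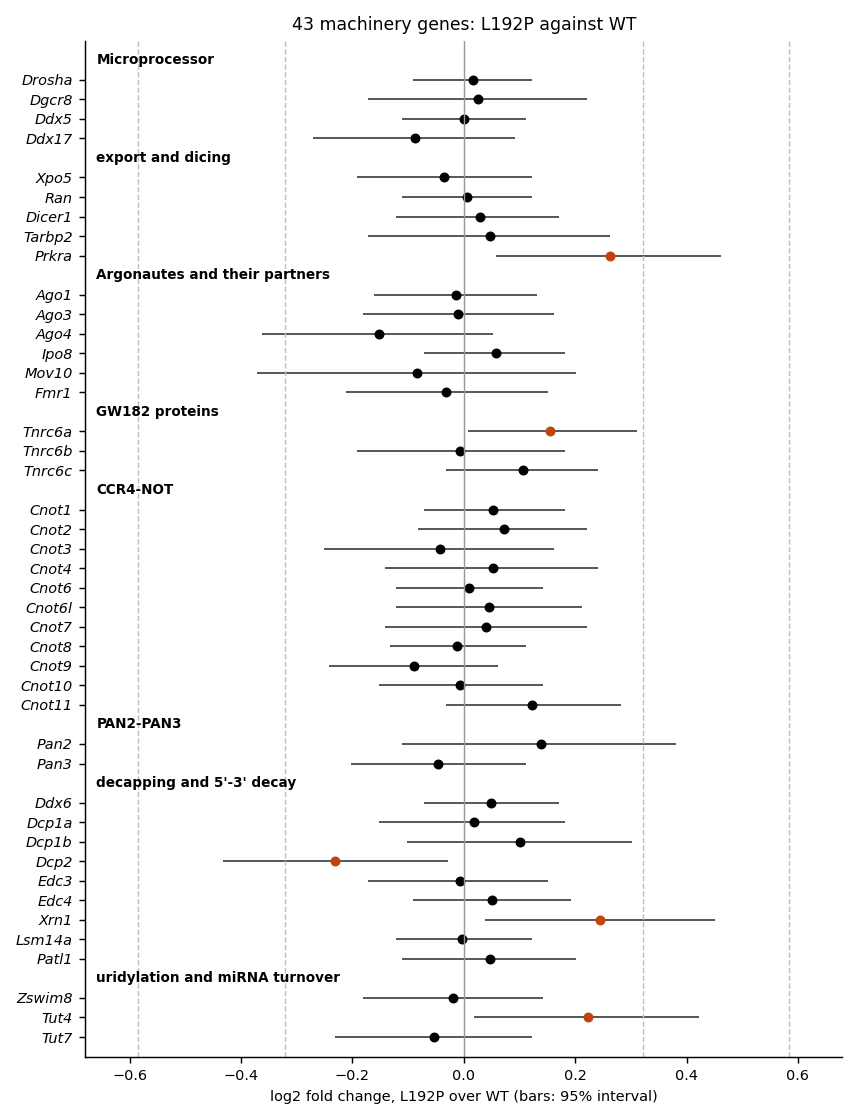
Log2 fold change of L192P over WT (x axis) for each of the 43 genes, grouped by role, with the 95% interval as a bar. Red points have an unadjusted p under 0.05, dashed lines mark 0.32 and 0.58 on either side of 0, and no interval reaches the outer lines.

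The 43 genes covered a wide range of levels. Levels per length are given in TPM, computed from the counts and the summed exon length of each gene, so that different genes can be set side by side. This length covers every annotated exon of a gene and not only those used in cortex, so the order depends on the annotation. The median was 25.8 TPM. The DEAD-box RNA helicase Ddx5 was highest, at 686 ± 53.0 TPM in L192P (SD, n = 4) and 675 ± 35.3 in WT. Ran, the nuclear transport GTPase, had 244 and 239 TPM, the helicase Ddx17 had 200 and 208, and the decay helicase Ddx6 had 118 and 112, and these 4 were the only members above 100 TPM. The RNA helicase Mov10 was lowest, at 4.96 ± 0.489 TPM in L192P and 5.18 ± 0.372 in WT. Between were Drosha at 76.0 TPM over all libraries, Ago1 at 51.9, Dicer1 at 14.2 and its partner Prkra at 13.8. In this order of 43 genes, 36 of the 42 pairs of neighbours overlapped over the 8 libraries. The 6 pairs that did not overlap were Ddx5 over Ran, Ddx17 over Ddx6, Ddx6 over Drosha, Drosha over Zswim8, Cnot9 over Xpo5, and Pan2 over Mov10.

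**Figure D2:**
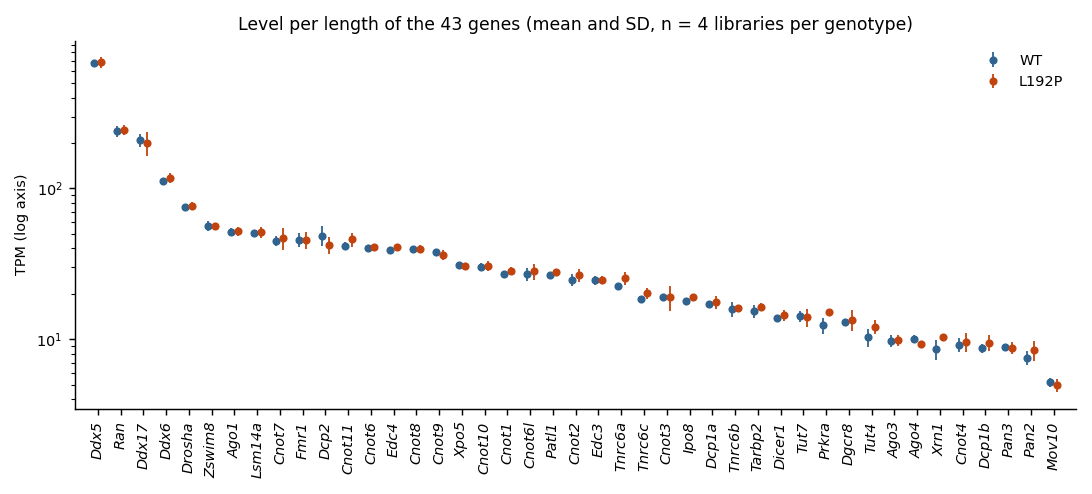
Level per length in TPM (y axis, log scale) of the 43 genes in falling order, with the mean and SD of 4 libraries for each genotype. The genes fall from 680 TPM (Ddx5) to 5.07 TPM (Mov10), and the points of both genotypes lie close together at nearly every gene.

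The Microprocessor genes showed no change that passed the test. Drosha, the nuclease, had 3421, 3160, 3346 and 3313 normalized counts in L192P replicates 1 to 4 and 3138, 3286, 3301 and 3370 in WT replicates 1 to 4. Its groups overlapped almost fully, and its log2 fold change of 0.016 had the smallest standard error of the 43 genes (0.054). Dgcr8, the RNA-binding partner of Drosha, was at 0.03 (95% interval -0.17 to 0.22), and Ddx5 was at 0.00 with an interval from -0.11 to 0.11. Ddx17 was the lowest of the group, at -0.09. Its normalized counts were 9769, 7788, 7339 and 7629 in L192P and 9585, 8328, 7971 and 8675 in WT, so replicate 1 was the highest library in both genotypes. The DESeq2 adjusted p of Ddx17 was 0.892, and 0.353 with the replicate block. Leaving out 1 library moved its log2 fold change between -0.19 (without L192P replicate 1) and -0.034 (without WT replicate 1).

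Dgcr8 carries a miRNA hairpin inside a coding exon, which the Microprocessor is known to cut as it controls its own level. Another annotated hairpin, Mir3618, overlaps Dgcr8 exons over 88 bases on the same strand and is not shown. The RefSeq hairpin Mir1306 is shown with the mature arms in capitals, and all 79 bases lie in the Dgcr8 exon (GRCm39 chr16:18102103-18102181, minus strand).
Mir1306 hairpin: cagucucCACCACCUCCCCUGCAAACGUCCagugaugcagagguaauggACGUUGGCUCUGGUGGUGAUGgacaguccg
Dgcr8 had 775.4, 770.4, 634.2 and 601.3 normalized counts in L192P and 688.4, 728.7, 652.9 and 660.3 in WT. L192P replicates 1 and 2 lay above every WT library and L192P replicates 3 and 4 below every WT library. The means were close (695.3 and 682.6), and the CV was 13.0% in L192P and 5.03% in WT.

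Among the export and dicing genes, Prkra stood highest. Prkra (ENSMUSG00000002731, GRCm39 chromosome 2, 76427715 to 76478405, minus strand) encodes PACT, a double-stranded RNA-binding partner of Dicer and activator of the kinase PKR. It had 379.3, 408.5, 386.3 and 394.1 normalized counts in L192P and 372.4, 300.0, 316.1 and 319.6 in WT. Every L192P library was above every WT library, with WT replicate 1 close to the L192P group and the other 3 WT libraries well below it. The mean was 392.0 ± 12.5 in L192P (SD, n = 4), while WT had 327.0 ± 31.5. Prkra was thus 20.0% higher by the fit, with a log2 fold change of 0.26 (95% interval 0.06 to 0.46). This was the smallest unadjusted p of the 43 genes (0.0103), and the DESeq2 adjusted p was 0.252, so it did not pass. Exons of Osbpl6 cover 961 bases of Prkra on the opposite strand.

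The other 4 genes of this step were close to 0. Dicer1, which cuts the hairpin to the mature duplex, was at 0.03 on the log2 scale (95% interval -0.12 to 0.17). The Dicer partner Tarbp2 was at 0.05 (-0.17 to 0.26), Ran at 0.01 (-0.11 to 0.12), and the exporter Xpo5 was the lowest of the group at -0.04 (-0.19 to 0.12). The DESeq2 adjusted p-values of these 4 were all at or above 0.969.

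The Argonaute paralogs of Ago2 gave little difference, with the largest value for Ago4. Ago1 had 1993, 1883, 2160 and 1905 normalized counts in L192P and 1849, 1959, 2150 and 2064 in WT. Ago3 had 902.5, 793.2, 842.8 and 898.4 in L192P and 899.7, 769.9, 915.7 and 885.0 in WT. For both genes the groups overlapped over nearly their whole range, and the 95% intervals of the log2 fold change were -0.16 to 0.13 for Ago1 and -0.18 to 0.16 for Ago3. Ago4 had 297.1, 302.7, 339.0 and 323.4 in L192P and 306.9, 368.9, 357.4 and 368.8 in WT. Ago4 was lower in L192P in all 4 replicate numbers, but WT replicate 1 lay within the L192P range. Its log2 fold change was -0.15 with an interval from -0.36 to 0.05 and a DESeq2 adjusted p of 0.746. Ago2 itself, which carries the substitution, is not among the 43 genes and was at 0.03 (-0.09 to 0.16).

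The partners of the Argonautes did not pass either. The import receptor Ipo8 was the highest of the group, at 0.06 (-0.07 to 0.18). It was higher in L192P in replicate numbers 1 to 3, and in number 4 both genotypes had 1466 normalized counts after rounding. Mov10, a helicase found with Argonautes, was at -0.08 with the widest interval of the 43 genes (-0.37 to 0.20). Fmr1, which encodes the RNA-binding protein FMRP, was at -0.03 (-0.21 to 0.15).

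Of the GW182 proteins, which link Argonautes to the deadenylases, Tnrc6a was the highest and Tnrc6b the closest to 0. Tnrc6a (ENSMUSG00000052707, chromosome 7, 122723094 to 122794519, plus strand) had 1821, 1512, 1847 and 1743 normalized counts in L192P and 1590, 1472, 1559 and 1601 in WT. L192P replicates 1, 3 and 4 lay above all WT libraries, while L192P replicate 2 fell among them. The mean was 1731 ± 152.2 in L192P (SD, n = 4) and 1556 ± 58.5 in WT, and the log2 fold change was 0.16 (11.4% higher) with an unadjusted p of 0.0418 and a DESeq2 adjusted p of 0.494. Tnrc6c had 2009, 1784, 2071 and 1849 in L192P and 1736, 1736, 1909 and 1793 in WT. Its groups overlapped, its log2 fold change was 0.11, and the DESeq2 adjusted p was 0.717. Tnrc6b was at -0.01 with an interval from -0.19 to 0.18.

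The CCR4-NOT complex, the main deadenylase of miRNA-guided decay, did not show a change that passed the test. All 11 of its genes had 95% intervals within 0.32 of 0, 7 were above 0 and 4 below, and the median log2 fold change was 0.039. The scaffold Cnot1 was at 0.05 (-0.07 to 0.18), and Cnot9, which contacts GW182 proteins, was the lowest at -0.09 (-0.24 to 0.06). The catalytic subunits were at 0.01 for Cnot6, 0.05 for Cnot6l, 0.04 for Cnot7 and -0.01 for Cnot8. Cnot11 was the highest, at 0.12, with 988.4, 951.4, 847.5 and 873.2 normalized counts in L192P and 895.1, 819.1, 808.2 and 845.2 in WT. It was higher in L192P within each replicate number, although the groups overlapped, and its DESeq2 adjusted p was 0.702. Cnot3 had the largest spread between L192P libraries of the 43 genes (CV 16.0%) and the smallest between WT libraries (1.62%).

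The second deadenylase has a catalytic subunit, Pan2, and an adaptor, Pan3. Pan2 had 367.2, 415.4, 310.2 and 315.0 normalized counts in L192P and 290.5, 353.1, 343.3 and 289.2 in WT. The libraries of both genotypes were mixed, and the log2 fold change of 0.14 had an interval from -0.11 to 0.38. It was 0.05 without L192P replicate 2 and 0.20 without L192P replicate 3. Pan3 was at -0.05 (-0.20 to 0.11).

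Decapping and 5′-3′ decay held the largest differences in both directions after Prkra. Dcp2 (ENSMUSG00000024472, chromosome 18, 44513547 to 44558036, plus strand), the catalytic decapping enzyme, had 1893, 1542, 1610 and 1743 normalized counts in L192P and 2273, 1623, 1988 and 2097 in WT. WT replicates 1, 3 and 4 lay above all L192P libraries, and WT replicate 2 lay within the L192P range. The mean was 1697 ± 155.0 in L192P (SD, n = 4), while WT had 1995 ± 274.2. The log2 fold change was -0.23 (SE 0.103) and the DESeq2 adjusted p 0.385. Within the replicate numbers 1 to 4 the log2 ratios were -0.26, -0.07, -0.30 and -0.27, so both genotypes had their highest library in replicate 1 and their lowest in replicate 2. With the replicate number as a block the log2 fold change was again -0.23, the SE fell to 0.065 and the adjusted p was 0.0171 in DESeq2 and 0.0409 in edgeR. Without WT replicate 2 the log2 fold change was -0.32 and the DESeq2 adjusted p was 0.0457, and the share of all genes called in that fit is not given.

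Xrn1 (ENSMUSG00000032410, chromosome 9, 95836798 to 95939856, plus strand), the exonuclease that degrades decapped mRNA, had 910.0, 863.7, 870.5 and 897.2 normalized counts in L192P and 805.0, 591.4, 756.1 and 848.7 in WT. All L192P libraries were above all WT libraries, by a narrow margin over WT replicate 4 and a wide one over WT replicate 2. The L192P libraries agreed closely (885.4 ± 21.9, SD, n = 4), while the WT libraries spread (750.3 ± 112.5). The log2 fold change was 0.24 (18.4% higher, 95% interval 0.04 to 0.45), the unadjusted p was 0.0214, and the DESeq2 adjusted p was 0.363, or 0.110 with the replicate block. Without WT replicate 2 the log2 fold change fell to 0.14, with an adjusted p of 0.835. Exons of Gm16794, Gm68890 and C78334 overlap Xrn1 on the opposite strand.

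The 7 other genes of this group lay between the values of Dcp2 and Xrn1, from -0.01 to 0.10. The Dcp1 cofactors of the decapping enzyme were at 0.02 for Dcp1a and 0.10 for Dcp1b. The enhancers of decapping were at -0.01 for Edc3 and 0.05 for Edc4. Ddx6, the helicase that joins CCR4-NOT to decapping, was at 0.05 (-0.07 to 0.17), its partner Lsm14a at 0.00 (-0.12 to 0.12) and the scaffold Patl1 at 0.05 (-0.11 to 0.20).

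The genes of uridylation and miRNA turnover differed among themselves. Tut4 (ENSMUSG00000034610, chromosome 4, 108316587 to 108418927, plus strand), a terminal uridylyltransferase, had 702.6, 633.9, 619.2 and 597.7 normalized counts in L192P and 616.5, 473.4, 575.7 and 529.1 in WT. The groups overlapped only through WT replicate 1, which lay between L192P replicates 3 and 4. Its log2 fold change was 0.22 (16.7% higher), with an unadjusted p of 0.028 and a DESeq2 adjusted p of 0.413, or 0.225 with the replicate block. Tut7, its close paralog, was at -0.05 (-0.23 to 0.12), and Zswim8, the substrate receptor of the ubiquitin ligase that removes Argonaute in target-directed miRNA decay, was at -0.02 (-0.18 to 0.14).

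**Figure D3:**
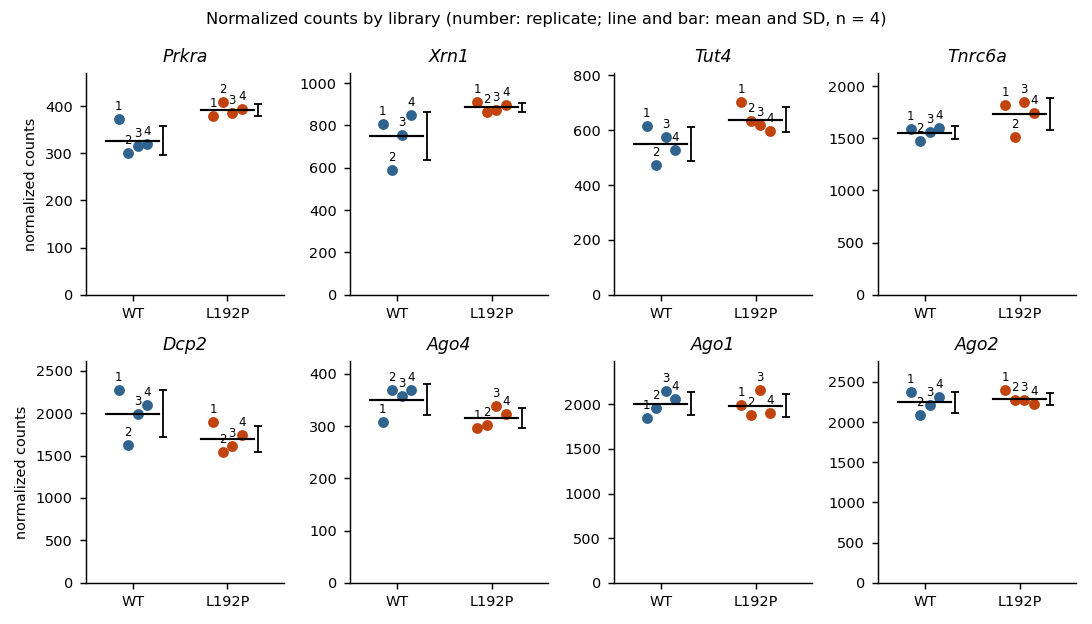
Normalized counts (y axis, from 0) in the 4 WT (blue) and 4 L192P (red) libraries for Prkra, Xrn1, Tut4, Tnrc6a, Dcp2, Ago4, Ago1 and Ago2, with the replicate number beside each point and the mean and SD. L192P lies above WT without overlap for Prkra and Xrn1, and WT replicate 2 is the lowest WT library for the first 5 of these genes.

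Separation of the groups was no more common here than elsewhere. The groups did not overlap for 2 of the 43 genes, Prkra and Xrn1 (4.65%), against 5.97% of all tested genes. Within replicate numbers, 9 genes (20.9%) had the same sign in all 4 numbers, against 23.8% of all tested genes. Of these, Prkra, Ipo8, Tnrc6a, Tnrc6c, Cnot11, Xrn1 and Tut4 were higher and Ago4 and Dcp2 were lower. Ipo8 was counted although its log2 ratio in number 4 rounds to 0. The median log2 ratio of the 43 genes was 0.065, 0.080, -0.038 and -0.025 in replicate numbers 1 to 4, so it changed sign between the numbers.

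**Figure D4:**
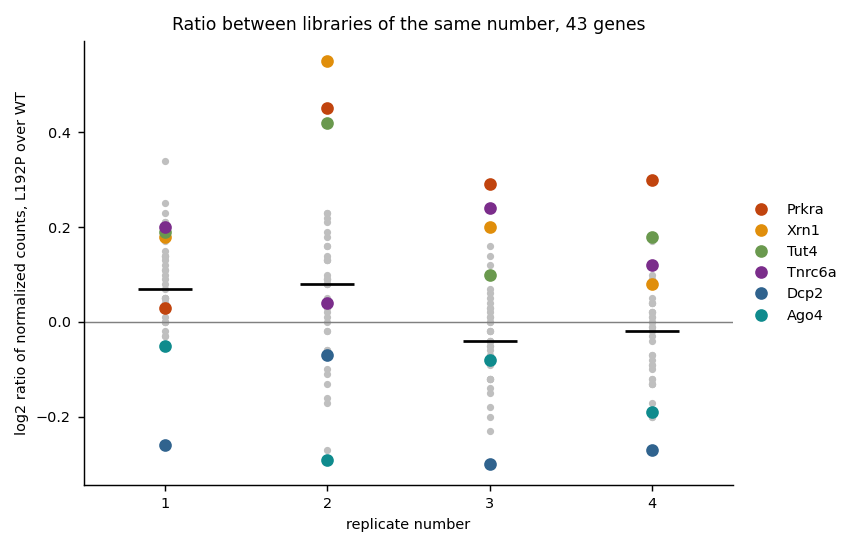
Log2 ratio of normalized counts of L192P over WT (y axis) between libraries of the same replicate number (x axis) for the 43 genes. Grey points are the other members, black bars are the median of the 43 genes (0.065, 0.080, -0.038 and -0.025), and the coloured genes keep one sign in all 4 numbers.

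One library was involved in several of these values. WT replicate 2, the deepest library with 43575900 counts where the others had 20396357 to 26521572, was the lowest WT library for 19 of the 43 genes (44.2%), against 26.5% of all tested genes. It was the lowest for Prkra, Xrn1, Tut4, Tnrc6a and Dcp2. Without it the log2 fold changes of Prkra, Tut4 and Tnrc6a were 0.22, 0.15 and 0.13, and the adjusted p-values in DESeq2 were 0.717, 0.911 and 0.902. Its part in the result was not tested beyond leaving it out.

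The make-up of paralog families was compared next, since a share within a family does not depend on the size factors. Each share is the counts of a gene divided by its exon length, as a percentage of the same sum over its family. Among the Argonautes, Ago1 held 49.0% ± 1.4 in L192P (SD, n = 4) and 49.1% ± 1.8 in WT, and Ago2 held 33.0% ± 1.3 and 32.1% ± 2.0. Ago3 held 9.24% in both genotypes, and Ago4 held 8.74% ± 0.47 in L192P and 9.62% ± 0.78 in WT. Ago1 and Ago2 thus made up most of the Argonaute mRNA in each genotype, and all 4 shares overlapped between the groups. Without division by length Ago2 was above Ago1, at 42.0% in L192P and 41.1% in WT against 36.4% and 36.7%. Ago3 then held 15.8% in both genotypes. Per length, the Ago4 share in replicate numbers 1 to 4 was 8.09%, 8.72%, 8.98% and 9.17% in L192P. In WT it was 8.66%, 10.5%, 9.46% and 9.82%, so the share was lower in L192P in each number. The exact two-sided permutation test, which does not use the numbers, gave p = 1.0, 0.457, 0.971 and 0.143 for Ago1 to Ago4, and Benjamini-Hochberg adjusted p-values of 1.0, 0.743, 1.0 and 0.669. The smallest p this test can give is 0.0286, so 1 share alone could not pass the adjustment over 13 tests. The adjusted p-values therefore do not decide whether a single share differs.

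Of 13 shares tested in 8 families, the share of Tut4 in the sum of Tut4 and Tut7 was the only one whose groups did not overlap. It was 45.4%, 47.2%, 47.0% and 46.8% in L192P and 42.9%, 40.6%, 43.2% and 40.5% in WT. The lowest L192P library stood above the highest WT library, and the means differed by 4.8 percentage points. The exact two-sided permutation test gave p = 0.0286, the smallest that 4 against 4 libraries allow, and the Benjamini-Hochberg adjusted p over the 13 tests was 0.371. With only 1 share at that smallest p, the adjusted p could not have been lower, so missing the threshold says nothing about this share. The share of Tarbp2 against Prkra was 51.9% ± 1.5 in L192P (SD, n = 4) and 55.4% ± 4.7 in WT, with overlapping groups. The remaining shares, of Tnrc6a, Tnrc6b, Tnrc6c, Cnot6 against Cnot6l, Cnot7 against Cnot8, Dcp1a against Dcp1b and Ddx5 against Ddx17, differed by at most 1.8 percentage points.

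**Figure D5:**
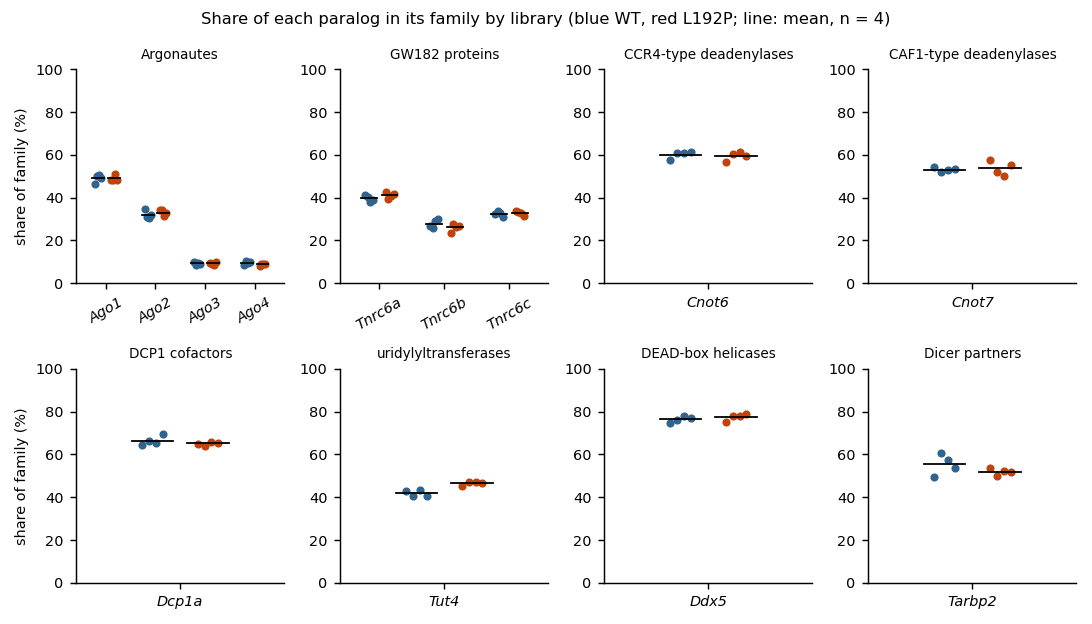
Share of each paralog in the length-scaled counts of its family (y axis, 0 to 100%) in the 4 WT (blue) and 4 L192P (red) libraries, with the mean as a line. For families of 2 the share of the first gene is shown, and Tut4 is the only gene whose libraries do not overlap between genotypes.

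The 3′ UTRs of the machinery genes were searched for sites of miRNAs, because these genes can themselves be targets. The mature sequences of 5 miRNAs known from brain are given from RefSeq with the seed, bases 2 to 8, in capitals.
mmu-let-7a-5p: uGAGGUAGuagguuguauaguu
mmu-miR-9-5p: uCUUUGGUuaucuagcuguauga
mmu-miR-29a-3p: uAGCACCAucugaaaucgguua
mmu-miR-92a-3p: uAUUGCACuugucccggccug
mmu-miR-128-3p: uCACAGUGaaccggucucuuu
A site is the reverse complement of the seed, looked for on the transcribed strand only and in the annotated 3′ UTR of 1 transcript per gene. A miR-9 site (ACCAAAG) was present in 12 of the 43 genes (27.9%), against 15.6% of 14848 genes with a 3′ UTR. A miR-128 site (CACTGTG) was present in 13 genes (30.2%, against 24.6%) and a miR-29 site (TGGTGCT) in 9 (20.9%, against 16.7%). A miR-92a site (GTGCAAT) was present in 5 genes (11.6%, against 8.09%). A let-7 site (CTACCTC) was present in 3 genes (6.98%, against 11.6%). The 3′ UTRs of the 43 genes were longer, with a median of 2110 bases against 1370.5, and the shares were not adjusted for length.

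Of the 43 genes, 16 held no site of the 5 miRNAs, and Tut4 was among these 16. Some sites in other genes with small p-values are shown with the seed match in capitals (GRCm39).
Xrn1, miR-9, chr9:95935605-95935627, plus strand: aatcttgtACCAAAGcaacttta
Xrn1, miR-92a, chr9:95935032-95935054, plus strand: ttaaatatGTGCAATttgttgta
Xrn1, miR-128, chr9:95935181-95935203, plus strand: catatattCACTGTGtgggacta
Prkra, miR-29, chr2:76460428-76460450, minus strand: agccttacTGGTGCTgaaactct
Tnrc6a, miR-9, chr7:122794333-122794355, plus strand: ttccaaaaACCAAAGgtagcttt
Dcp2, whose log2 fold change was below 0, also holds miR-9 and miR-128 sites, so genes with sites lay on both sides of 0. Within the 43 genes, those with and those without a site had median log2 fold changes of 0.037 and 0.010 for miR-9, 0.029 and 0.013 for miR-29, and 0.018 and 0.007 for miR-128. For miR-92a it was 0.018 and 0.013, and for let-7 it was -0.006 and 0.017. These medians are given as a description, without a test. Ago3 holds sites of 4 of the 5 families in a 3′ UTR of 12745 bases, and its log2 fold change was -0.01.

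The rest of the pathway was read from 3 further lists with 103 genes, of which 102 were tested. None passed (DESeq2), 7 had an unadjusted p under 0.05, of which 4 were higher and 3 lower in L192P (9.44% of all tested genes had such a p), and the median log2 fold change was 0.027. In the list of RISC loading and cofactors, 0 of 28 had an unadjusted p under 0.05. The smallest p-values there were those of the chaperone Hspa8 (log2 fold change -0.15, adjusted p 0.684) and of Fxr2, a relative of FMRP (0.08, adjusted p 0.702). Among 23 tested regulators of miRNA processing, the cap-binding subunit Ncbp1 was at -0.14 (adjusted p 0.448) and the RNA methyltransferase Mettl3 at -0.20 (adjusted p 0.493).

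Of 51 other decay factors, 0 passed and 5 had an unadjusted p under 0.05, of which 4 were higher and 1 lower, beside the same 9.44% of all tested genes. Pde12 (ENSMUSG00000043702), a mitochondrial deadenylase, had 526.9, 545.1, 569.6 and 509.1 in L192P and 477.2, 424.8, 436.7 and 478.8 in WT. Every L192P library was above every WT library, and the log2 fold change was 0.25, with a DESeq2 adjusted p of 0.178. Exons of Arf4 and 9930004E17Rik lie on the opposite strand of Pde12.

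Marker lists of cell types and regions were read beside these values. In bulk tissue, fewer cells of a type and less RNA per cell cannot be told apart. The summed normalized counts of 6 markers of cortical excitatory neurons were 36700 to 41310 in L192P and 41840 to 43940 in WT, without overlap, although 0 of the 6 genes passed the test. The sum over 5 microglial markers was 4102 to 7184 in L192P and 4274 to 5308 in WT, and that over 4 thalamic markers was 1597 to 4369 and 1412 to 1757, with 0 genes called and overlapping sums in either list. The sum over 5 striatal markers was 16380 to 20560 in L192P and 20290 to 23960 in WT, lower in L192P in all 4 replicate numbers, and 0 of these genes were called. Of 6 hypothalamic markers 2 were called higher in L192P, with sums of 79.66 to 1120 in L192P and 58.66 to 202.5 in WT, and the markers Pmch and Hcrt were at 0 in at least 1 library. The thalamic and hypothalamic sums were higher in L192P in all 4 replicate numbers, and the oligodendrocyte sum was lower in all 4. The highest thalamic sum (4369) and the highest hypothalamic sum (1120) were both in L192P replicate 3. Of 6 interneuron markers 1 was called higher. In the other 6 lists 0 genes were called. Replicate 1 of each genotype had almost no Xist (0.934 normalized counts in L192P and 1.82 in WT) where the other 6 libraries had 5185 to 7257. Genes of the Y chromosome had 3547 counts in L192P replicate 1 and 3534 in WT replicate 1, against 186 to 573 in the other 6. By these counts replicate 1 was male in both genotypes and the other libraries were female. The part of these differences in the values of the 43 genes was not tested.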

How the data were processed

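The authors aligned stranded poly(A) libraries to GRCm39 with STAR (2.7.9a in the submitters' processing notes), counted reads per gene with featureCounts 1.5.1 and deposited raw counts for each library. Whether the counting used strand is not given in the sources used here, and 27 of the 43 genes overlap an exon on the opposite strand. The authors also deposited a normalized signal, which is each count divided by a DESeq2 size factor (checked to 2.9e-10). Totals ran from 20396357 to 43575900 counts per library, and the 43 genes had 101 to 34477 counts per library, and counting error is part of the spread between libraries and not small for the members with few counts.

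Counts were fitted over all genes with DESeq2 1.42.0 in R 4.3.3, with genotype as the only term, all 8 libraries, and Benjamini-Hochberg adjustment. A gene was called at an adjusted p under 0.05. Fold changes were not shrunken, and 95% intervals are 1.96 standard errors. Shares were compared by exact permutation over 70 arrangements. edgeR 4.0.16, limma 3.58.1 and other alternatives are given at the end. The fits were tested on simulated data.

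The labels do not say what the replicate numbers stand for. By Xist and Y-chromosome counts, replicate 1 of each genotype was male and the other libraries were female, so number 1 also differs from the others in sex. Deviations from the genotype mean over 13422 genes correlated between same-numbered libraries at 0.63, 0.38, 0.23 and 0.33, so the numbers were taken to pair the libraries, and the fit with this block is given where it changed a result. No libraries of a genotype agreed within sampling noise (chi-square per degree of freedom 5.52 to 22.6).

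Members and lists were chosen with earlier results of these data known, and the 5 miRNAs after the fits had been seen. Values in every library are given for genes called in either DESeq2 fit, the 8 smallest p-values, the smallest in each group and the Argonautes, and Drosha and Dgcr8 were added after their values were seen. Exons, positions and UTRs are from GENCODE M39, which holds 98.8% of the identifiers of the count table. A gene of the further lists that the rule names and the edited site of Ago2 are not reported here.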

Additional observations from a re-analysis of the deposited data

Results flagged for a closer look

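Each group of 4 libraries was screened for a library far from the others, by its gap to the nearest one as a share of the range of the group (Dixon's 95% critical value). Of 126 groups of values, 4 stood out, where chance gives about 6.3. Cnot3, a CCR4-NOT subunit, had 834.3 normalized counts in WT replicate 3 against 859.2 to 864.2 in the other WT libraries. The chaperone Hspa8 had 36240 in WT replicate 1 against 48260 to 50520. The share of Ago1 among the Argonautes was 51.0% in L192P replicate 3 against 48.2% to 48.4% in the other L192P libraries, and the share of Cnot6 against Cnot6l was 57.6% in WT replicate 1 against 60.8% to 61.1%.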

How the results depend on the processing

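Of 19 alternatives, those that kept all libraries or replicates 2 to 4 gave 0 called members, except for 1 gene, Dcp2, with the replicate block in DESeq2 and in edgeR. Leaving out 1 library gave 0 to 1 called members, the 1 being Dcp2 without WT replicate 2. The replicate block also gave 1 called gene in the further lists, and it changed no other call among the named genes. Replicates 2 to 4 alone gave 2 called genes in the further lists, Hspa8 (log2 fold change -0.28, adjusted p 7.96e-05) and Upf2 (0.28, adjusted p 0.0315, named after its value was seen). Leaving out 1 library gave 0 to 1 there, the 1 being Hspa8 without WT replicate 1 (-0.25, adjusted p 0.0025). The shares of all genes called in the fits with libraries left out are not given. Whether these calls are more or fewer than elsewhere can therefore not be said. The median log2 fold change of the members ran from -0.009 to 0.041, and 34 to 36 intervals lay within 0.32 of 0. With TMM factors 8 genes and with total counts 12 genes kept one sign in all replicate numbers (settings added after seeing the data). The matching shares of all tested genes are not given for these factors, so the 2 counts are not read as a result about the members.

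Directions near 0 were not stable. With total-count size factors Ago1 was at 0.012 and Ago3 at 0.014, and with limma-voom Ago3 was at 0.0017. Leaving out 1 library gave -0.055 to 0.021 for Ago1, -0.068 to 0.025 for Ago3 and -0.0075 to 0.059 for Ago2. Prkra, Xrn1, Tut4, Tnrc6a, Dcp2 and Ago4 kept their direction in all 19 alternatives. The lowest adjusted p was 0.0646 for Prkra, 0.0768 for Xrn1 and 0.0927 for Tut4. With a library left out the smallest p of a share, 3 against 4 libraries, is 0.057.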
